A study of Homo sapiens with 12 samples.

Results

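A set of 9 of the longest genes of the human genome, known for their place at or near common fragile sites, were followed through 6 maps of DNA synthesis and histone acetylation. They are FHIT, WWOX, IMMP2L, MACROD2, CNTNAP2, CTNNA3, PTPRD, DLG2 and LRP1B, chosen by name, each taken over its gene body interval on build hg19. Their bodies measure 0.90 Mb (IMMP2L) to 2.31 Mb (CNTNAP2), add up to 16.0 Mb and lie on 8 chromosomes. A region was counted for a gene when it lay wholly inside the body. By that rule the genes held 4 of 5086 regions of newly made DNA in H1 control cells, 1 of 1755 in H1 knockdown cells, 1 of 5743 in IMR90 and 5 of 6272 in Saos-2. They held 70 of 65946 regions of H3K18 acetylation in H1 and 150 of 84471 in IMR90.

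The study labelled replicating DNA with the thymidine analogue bromodeoxyuridine (BrdU), pulled it down with an antibody and sequenced it, starting from 4 µg of labelled DNA per pull-down. H1 embryonic stem cells for BrdU received a non-targeting siRNA (control) or siRNAs against EP300 and CREBBP (knockdown), which encode the acetyltransferases p300 and CBP. Both H1 BrdU cultures were collected 72 h after transfection, and the medium of both contained HA 1077 at 10 µM. IMR90 primary lung fibroblasts, Saos-2 osteosarcoma cells and the H1 cells used for H3K18ac received no siRNA, so H1 BrdU lists differ from the others in treatment as well as in cell line or assay. H3K18ac, the acetylation of lysine 18 of histone H3, was mapped by chromatin immunoprecipitation from 5000000 cells each in H1 and IMR90. With a single library in every group there is no replicate spread to judge differences by, and no p-values are given. Sequencing depth is unknown because the deposited files are lists of regions, and a place without a region may only have missed the threshold that the authors set.

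Common fragile sites are places where metaphase chromosomes break or gap when DNA replication is slowed. Many lie inside very large genes, of which FHIT at FRA3B and WWOX at FRA16D are the textbook cases. They are described as replicating late and as having few origins in their central parts, and transcription across such a gene can last longer than a cell cycle. H3K18ac is laid down largely by p300 and CBP and is known at active promoters and enhancers.

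H3K18ac marked the start of only some of these genes. Start here means the edge of the gene body interval at which the gene begins on its strand. In the H1 list a region lay in the first 10 kb of FHIT, which encodes a hydrolase of diadenosine polyphosphates (chr3:61236601-61236900). A second lay at the start of WWOX, which encodes an oxidoreductase with WW domains (chr16:78133601-78133800). The start of IMMP2L, which encodes a subunit of the mitochondrial inner membrane peptidase, held a pair of them (chr7:111201801-111201900 and chr7:111202201-111202400). IMR90 had its own regions at the same starts of WWOX (chr16:78133601-78133700) and IMMP2L (chr7:111201801-111201900), and none at FHIT. At DLG2, which encodes a synaptic scaffold protein, the marks lay just outside the body, within 10 kb of the interval edge. Their side of the RefSeq start was not determined, since that start was not placed on hg19. There H1 had 2 regions (chr11:85339101-85339300 and chr11:85339701-85340000) and IMR90 had 3 (chr11:85338101-85338200, chr11:85338801-85339200 and chr11:85339801-85339900). No region of either list lay within 10 kb of the start, inside or before it, of MACROD2, CNTNAP2, CTNNA3 or PTPRD. Only this start of each gene was examined. The promoter table holds 2 promoters each for FHIT, MACROD2 and CTNNA3, 3 for PTPRD and 9 for DLG2. Their other starts were not placed on hg19, so marked and unmarked refer to the examined start only. LRP1B was not matched in the promoter table, so its ends are given by coordinate. The upper end of LRP1B held 3 H1 regions within 1 kb (chr2:142888001-142888100, chr2:142888401-142888600 and chr2:142888901-142889000).

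The promoters of FHIT, WWOX and IMMP2L, marked inside the body, are printed with that of DLG2, marked just before it, and with that of the unmarked CTNNA3, which encodes an alpha-catenin of cell junctions and was added after its values had been seen. Each is the 250 bases before the outermost start listed by RefSeq on GRCh38.p14, read 5′ to 3′ on the strand of the gene. They lie at chr3:61251453-61251702 (minus strand), chr16:78099404-78099653 (plus strand), chr7:111562493-111562742 (minus strand), chr11:85628374-85628623 (minus strand) and chr10:67696196-67696445 (minus strand). These coordinates are of another build than those of the regions and were not placed on the same map. Capitals mark every CG dinucleotide, which reads the same on both strands.
FHIT: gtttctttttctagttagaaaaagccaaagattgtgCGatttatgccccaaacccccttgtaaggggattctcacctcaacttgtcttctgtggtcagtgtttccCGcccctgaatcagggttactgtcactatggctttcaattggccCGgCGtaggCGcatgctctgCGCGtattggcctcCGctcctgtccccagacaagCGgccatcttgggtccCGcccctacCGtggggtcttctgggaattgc
WWOX: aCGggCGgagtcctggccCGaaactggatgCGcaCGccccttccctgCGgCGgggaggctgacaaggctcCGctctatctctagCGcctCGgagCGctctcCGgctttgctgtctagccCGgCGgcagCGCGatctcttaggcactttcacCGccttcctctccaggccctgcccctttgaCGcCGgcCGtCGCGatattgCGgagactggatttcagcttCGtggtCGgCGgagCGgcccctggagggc
IMMP2L: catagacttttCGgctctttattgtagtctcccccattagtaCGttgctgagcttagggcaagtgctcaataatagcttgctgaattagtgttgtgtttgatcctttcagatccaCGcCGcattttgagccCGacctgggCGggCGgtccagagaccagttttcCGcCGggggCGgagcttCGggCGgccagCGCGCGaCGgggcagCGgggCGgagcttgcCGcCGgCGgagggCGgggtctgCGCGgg
DLG2: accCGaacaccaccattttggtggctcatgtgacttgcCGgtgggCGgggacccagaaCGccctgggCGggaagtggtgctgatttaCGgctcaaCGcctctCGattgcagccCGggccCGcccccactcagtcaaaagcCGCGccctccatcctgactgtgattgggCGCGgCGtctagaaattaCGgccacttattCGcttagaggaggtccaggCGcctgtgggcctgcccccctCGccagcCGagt
CTNNA3: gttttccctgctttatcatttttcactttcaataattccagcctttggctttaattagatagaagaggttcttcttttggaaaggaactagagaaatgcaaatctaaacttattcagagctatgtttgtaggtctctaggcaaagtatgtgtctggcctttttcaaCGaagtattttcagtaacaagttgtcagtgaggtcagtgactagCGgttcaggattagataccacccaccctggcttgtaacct

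The letters of the marked and the unmarked promoters did not divide in the same way as the mark. CG occurred 11 times in FHIT, 27 times in WWOX, 24 times in IMMP2L, 20 times in DLG2 and 2 times in CTNNA3. Of the 35116 promoters in the table, 50.3% hold at least as many CG as FHIT, 17.7% as many as WWOX, 23.7% as many as IMMP2L, 32.4% as many as DLG2 and 85.3% as many as CTNNA3. Among the unmarked genes, however, MACROD2 has 29 and PTPRD 32, more than any of the marked ones, and CNTNAP2 has 12. MACROD2 encodes a hydrolase that removes ADP-ribose from proteins, PTPRD a receptor tyrosine phosphatase, and CNTNAP2 a neuronal adhesion protein of the neurexin family. The number of CG in this window therefore did not separate the 8 genes by the mark at the examined start.

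BrdU regions were sparse in the bodies of these genes in all 4 lists. Together the lists had 11 regions there, against 125 if every gene had the density of the rest of its own chromosome. That number expected was computed per list over the open length, meaning the 500 kb bins that hold a region of any of the 6 lists (1084.5 Mb over the 8 chromosomes). In H1 control 4 regions were found against 33.0 expected, a ratio of 0.121 (exact Poisson 95% interval 0.0330 to 0.310). In the H1 knockdown the ratio was 0.0988 (0.00250 to 0.550), from 1 region against 10.1. IMR90 had the lowest ratio, 0.0244 (0.000618 to 0.136), with 1 region against 41.0. Saos-2 had 5 regions against 40.5, a ratio of 0.124 (0.0401 to 0.288). All 4 intervals lay below 1 when the rest of the chromosome was the comparator, and all 4 contained 1 when it was replaced by the 1 Mb on either side of each gene (ratios of 0.408 in H1 control, 0.225 in the knockdown, 0.140 in IMR90 and 0.562 in Saos-2). The intervals cover counting error only, and neighbouring regions are not independent.

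BrdU regions were unevenly spread along these chromosomes in general, so stretches without any were common. Of 754 windows with the lengths of the genes, laid end to end on the same chromosomes, 28.6% held no region of the H1 control list, 49.9% none of the knockdown list, 35.3% none of IMR90 and 32.5% none of the Saos-2 list. Of the 9 genes, 7, 8, 8 and 6 held none, in the same order. Covered length gave ratios to the rest of the chromosomes of 0.141 in H1 control, 0.0809 in the knockdown, 0.0117 in IMR90 and 0.155 in Saos-2.

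**Figure D1:**
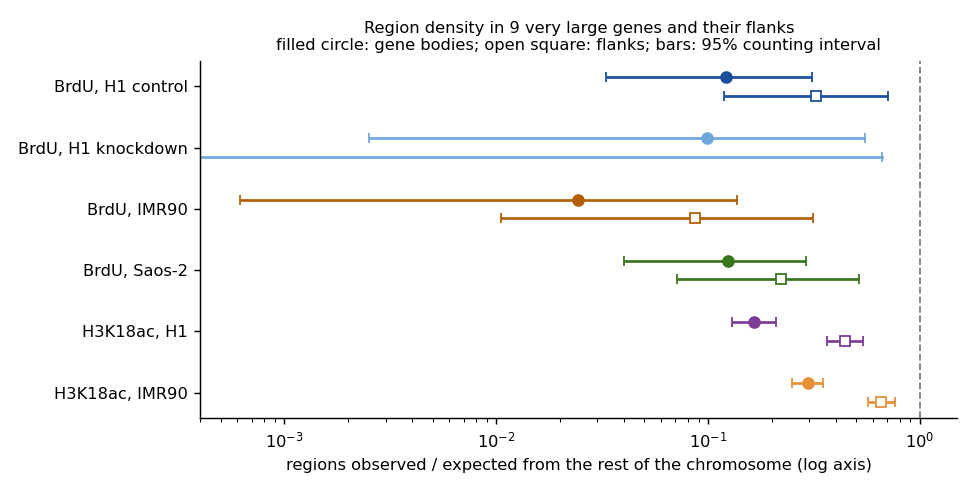
Regions observed in the 9 gene bodies (filled circles) and in the 500 kb on either side of each (open squares), divided by the number expected from the rest of the same chromosomes, on a log axis with exact Poisson 95% intervals, for the 6 lists of 1 library each. The knockdown flanks held 0 regions and show only the upper part of their interval, and all points and intervals lie left of the dashed line at 1, up to 0.656 for IMR90 H3K18ac in the flanks.

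Among the genes for enzymes, every one was below its expected number over the 4 lists. FHIT held 1 region, in the knockdown list, against 6.27 expected. WWOX held 2, both in Saos-2, against 12.5. IMMP2L held 1 in H1 control, against 6.48. The other two enzymes had the largest expected numbers: MACROD2 held 1 region, in Saos-2, against 24.3, and PTPRD 1, in IMR90, against 19.5. The PTPRD region is the only IMR90 region in any of the 9 genes, a single window of 100 bp (chr9:9646201-9646300) whose score ranked 5275 of 5743 in its list.

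Among the remaining genes, 1 held BrdU regions and 3 held none. PTPRD, a receptor as well as an enzyme, was counted above. CNTNAP2 had 5 BrdU regions, 3 in H1 control and 2 in Saos-2, against 16.6 expected. CTNNA3, DLG2 and LRP1B, the last of which encodes a large endocytic receptor of the low-density lipoprotein receptor family, had none in any list. For these 3 genes 12.1, 15.8 and 11.1 regions were expected over the 4 lists. CNTNAP2 thus held 5 of the 11 regions, and without it the H1 control ratio over the genes was 0.0351. The only knockdown region was that of FHIT and the only IMR90 region that of PTPRD, so without these genes both ratios were 0.

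**Figure D2:**
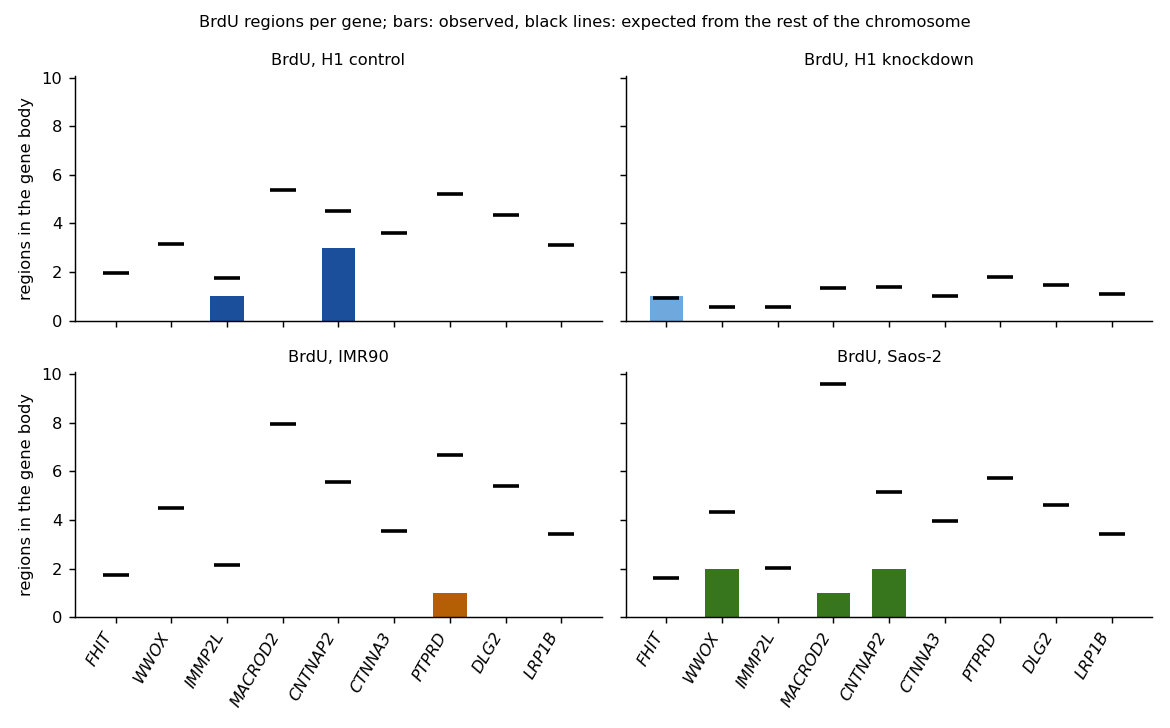
BrdU regions wholly inside each gene body (bars) and the number expected from the rest of the same chromosome (black lines), in 4 panels of 1 library each. The bar reaches just above the line for FHIT in the knockdown (1 region) and stays below it in all other cases, and CTNNA3, DLG2 and LRP1B have no bar in any panel.

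The longest stretch without a BrdU region that touched each gene was followed past the gene ends where it crossed them. LRP1B lay within 8.74 Mb without a BrdU region of any list (chr2:136345801-145084500), the longest of the 1011 such stretches on chromosome 2. CTNNA3 was crossed by 4.26 Mb (chr10:65223101-69483500), ranked 3 of 653 on its chromosome, and DLG2 by 3.52 Mb (chr11:82725901-86248900), ranked 4 of 701. In PTPRD the stretch on the lower side of its IMR90 region measured 2.76 Mb, and in IMMP2L that below its H1 control region measured 2.26 Mb. FHIT was touched by one of 1.92 Mb, ranked 18 of 666 on chromosome 3, and MACROD2 by one of 1.32 Mb, ranked 4 of 537 on chromosome 20. That of CNTNAP2 lay wholly inside the gene, with 1.27 Mb and rank 20 of 799 on chromosome 7. The shortest was that of WWOX, at 0.996 Mb, ranked 9 of 609 on chromosome 16. Stretches were ranked over all gaps between neighbouring BrdU regions of a chromosome, unsequenced parts included.

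The few BrdU regions in these genes recurred between lists at a single place. Of the 11 regions, 3 overlapped a region of another BrdU list, and all 3 lay near the downstream end of CNTNAP2. Scores are whole numbers given by the authors whose meaning is not stated, and they are ranked here only within a list. A Saos-2 region of 1500 bp (chr7:148027301-148028800) ranked 76 of 6272 by score in its list (percentile 98.8). It contained 2 H1 control regions, one of 600 bp that had the highest score of the control list in these genes (chr7:148027301-148027900, percentile 93.0) and one of 200 bp (chr7:148028201-148028400, percentile 78.5). It lies 89.2 kb from the downstream end of the gene. The nearest knockdown region was 818900 bp away from it and the nearest IMR90 region 147200 bp. In the other genes none of the 6 BrdU regions overlapped another BrdU list. The share of all BrdU regions that overlap any other BrdU list was not computed. Whether these counts differ from the whole lists is therefore not known.

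Counted by list, 2 of the 4 control regions and 0 of the 1 knockdown region in the genes overlapped Saos-2, against 34% of all control regions and 13% of all knockdown regions. Of the 5 Saos-2 regions 1 overlapped the control list, against 26% of that list. With so few regions the exact binomial 95% intervals of these shares are wide (6.76% to 93.2%, 0% to 97.5% and 0.505% to 71.6%), and each contains the share of its whole list.

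The comparison of H1 knockdown with H1 control asked whether knockdown of p300 and CBP changed DNA synthesis in these genes. The knockdown list had 1 region in them and the control list 4, a ratio of 0.250 (exact conditional 95% interval 0.00508 to 2.53), while over the whole lists the ratio was 0.345. That interval contains 0.345, so no difference from the rest of the genome was detectable at these counts. No control region in the genes overlapped a knockdown region (0 of 4, exact upper bound 60.2%, against 3.07% of the whole control list), and the knockdown region overlapped no control region (0 of 1, upper bound 97.5%, against 9.06%). CNTNAP2 alone accounted for 3 of the 4 control regions. Relative to the whole lists, the ratio was 0.725 with CNTNAP2 and 2.90 without it, from 1 region in each list.

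H3K18ac was also sparse in the gene bodies. Its counts per gene ranged from 2 (CTNNA3 in H1, WWOX in IMR90) to 25 (FHIT in IMR90). In H1 the genes held 70 regions against 424 expected, a ratio of 0.165 (0.129 to 0.209). In IMR90 they held 150 against 508, a ratio of 0.295 (0.250 to 0.346). Every one of the 9 genes was below its expected number in both lists. By covered length the ratios were lower still, at 0.119 and 0.210. The median region was 100 bp long in H1, as in its whole list, and 200 bp in IMR90, against 300 bp in its whole list.

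Fewer than 50% of the expected regions were found in 9 of the 9 genes in H1, where 38.5% of windows of the same lengths were as low, and in 7 of 9 in IMR90, against 30.1% of windows. The exceptions in IMR90 were IMMP2L, with 22 against 25.2 (ratio 0.874, 0.547 to 1.33), and FHIT, with 25 against 44.7 (ratio 0.559, 0.361 to 0.826). Apart from that of IMMP2L in IMR90, the intervals of all 9 genes lay below 1 in both lists. Against the 1 Mb on either side in place of the chromosome, the intervals of FHIT (0.466), WWOX (0.778), IMMP2L (1.21), PTPRD (0.687) and LRP1B (0.702) contained 1 in H1, and those of FHIT (0.653), IMMP2L (1.16), MACROD2 (1.26), PTPRD (0.395) and LRP1B (1.15) in IMR90. With regions within 10 kb merged, those of WWOX (0.710) and IMMP2L (0.472) in H1 and of FHIT (0.529) and IMMP2L (1.68) in IMR90 contained 1.

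**Figure D3:**
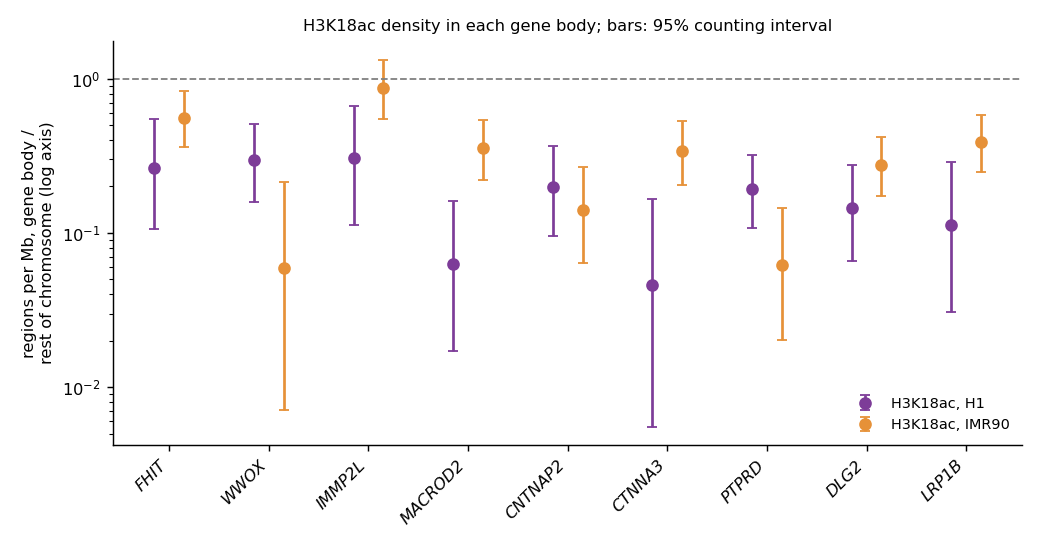
H3K18ac regions per Mb in each gene body divided by regions per Mb in the rest of the same chromosome, on a log axis, for H1 and IMR90 (1 library each), with exact 95% counting intervals. All 18 points lie below the dashed line at 1, and IMR90 lies above H1 for FHIT, IMMP2L, MACROD2, CTNNA3, DLG2 and LRP1B and below it for WWOX, CNTNAP2 and PTPRD.

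The genes differed between the cell lines in opposite directions. WWOX held 13 regions in H1 and 2 in IMR90, and PTPRD 15 and 5. In these genes the ratio of IMR90 to H1 was 0.154 (0.0169 to 0.680) and 0.333 (0.0948 to 0.965), each interval below the ratio of the whole chromosome (0.771 and 1.03). The opposite order was found in CTNNA3, with 2 regions in H1 and 19 in IMR90, in MACROD2 with 4 and 22, in LRP1B with 4 and 24, and in IMMP2L with 6 and 22. Their ratios were 9.50 (2.29 to 84.1), 5.50 (1.87 to 22.0), 6.00 (2.06 to 23.8) and 3.67 (1.44 to 11.1), each interval above that of its chromosome (1.29, 0.988, 1.73 and 1.29). FHIT with 7 and 25, DLG2 with 9 and 22 and CNTNAP2 with 10 and 9 had intervals that contain the chromosome's ratio. Each of the 6 calls ended under at least 1 of 2 other settings. Taken relative to the chromosome, the interval of WWOX contained 1 in the upper 50% of the lists by score (0 regions in IMR90) and with regions within 10 kb merged (0.263, 0.0288 to 1.16). The same held for MACROD2 (7.18, 0.922 to 323, and 3.26, 0.873 to 14.8) and for CTNNA3 (5.01, 0.644 to 226, and 3.44, 0.564 to 36.2), where 14 of the 19 IMR90 regions form 1 cluster. For PTPRD it did so when merged (0.450, 0.0795 to 1.75), and for IMMP2L (1.28, 0.250 to 8.27) and LRP1B (5.01, 0.694 to 219.6) in the upper 50% by score. These intervals cover counting error in 1 library of each cell line.

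Most IMR90 regions lay in clusters, somewhat less often than in their whole list, while H1 regions lay alone more often than in theirs. When regions within 10 kb of each other were joined, the 150 IMR90 regions formed 58 clusters, 20 of which had 3 or more regions and together held 98. The 70 H1 regions formed 62 clusters, 57 of them a single region. Clusters of 3 or more held 65.3% of the IMR90 regions in the genes and 75.0% of those in the whole list. Single regions made up 81.4% of the H1 regions in the genes and 31.2% of the whole H1 list, and 16.0% and 10.2% in IMR90. Joining at a fixed distance leaves more regions alone where density is lower, and density was low in these genes in both lists. Clustering beyond that low density was not tested. The largest IMR90 cluster, of 14 regions over 17.5 kb, lay in CTNNA3 (chr10:69361101-69378600). LRP1B had one of 9 (chr2:141636901-141653300), MACROD2 one of 8 (chr20:14425701-14434000), DLG2 one of 7 (chr11:83526601-83539500) and FHIT a pair of 6 (chr3:59794001-59805700 and chr3:60559701-60575200). The total over the 9 genes depended on this: counted as regions, IMR90 exceeded H1 by 2.14 times, or 1.67 times relative to the whole lists (1.25 to 2.25), and counted as clusters by 1.23 times relative to the lists (0.847 to 1.79).

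Hardly any of the mark in these genes was found at the same place in both cell lines. Of the 70 H1 regions 2 (2.86%, exact binomial 95% interval 0.348 to 9.94) overlapped IMR90, against 19% of the whole H1 list. Of the 150 IMR90 regions 2 (1.33%, 0.162 to 4.73) overlapped H1, against 14.5% of the IMR90 list. Both intervals lie below the share of the whole list, but they treat regions as independent. The 150 IMR90 regions form 58 clusters when joined within 10 kb, so their interval is too narrow. The overlaps were those at the starts of WWOX and IMMP2L, so no shared region lay deeper inside any of the 9 bodies.

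The regions of highest score in each cell line lay at different places. In H1 the 3 of highest score lay in PTPRD (chr9:8857801-8858700, 900 bp, percentile 92.2, also the longest), CTNNA3 (chr10:68990401-68990800, percentile 88.0) and CNTNAP2 (chr7:145945401-145945900, percentile 87.1). In IMR90 they lay in CNTNAP2 (chr7:147110201-147111600, percentile 95.6), FHIT (chr3:59802701-59804200, percentile 94.9) and again CNTNAP2 (chr7:147108501-147109700, percentile 94.0). The longest in IMR90 measured 1500 bp and were the FHIT region and another in CNTNAP2 (chr7:147206301-147207800). Most regions ranked lower: the median percentile in the genes was 47.4 in H1 and 37.5 in IMR90. In CNTNAP2 the IMR90 regions began between 1295.5 and 1393.3 kb from the start of the gene, while the H1 regions began at 1054.6 kb or less or at 1987 kb or more.

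**Figure D4:**
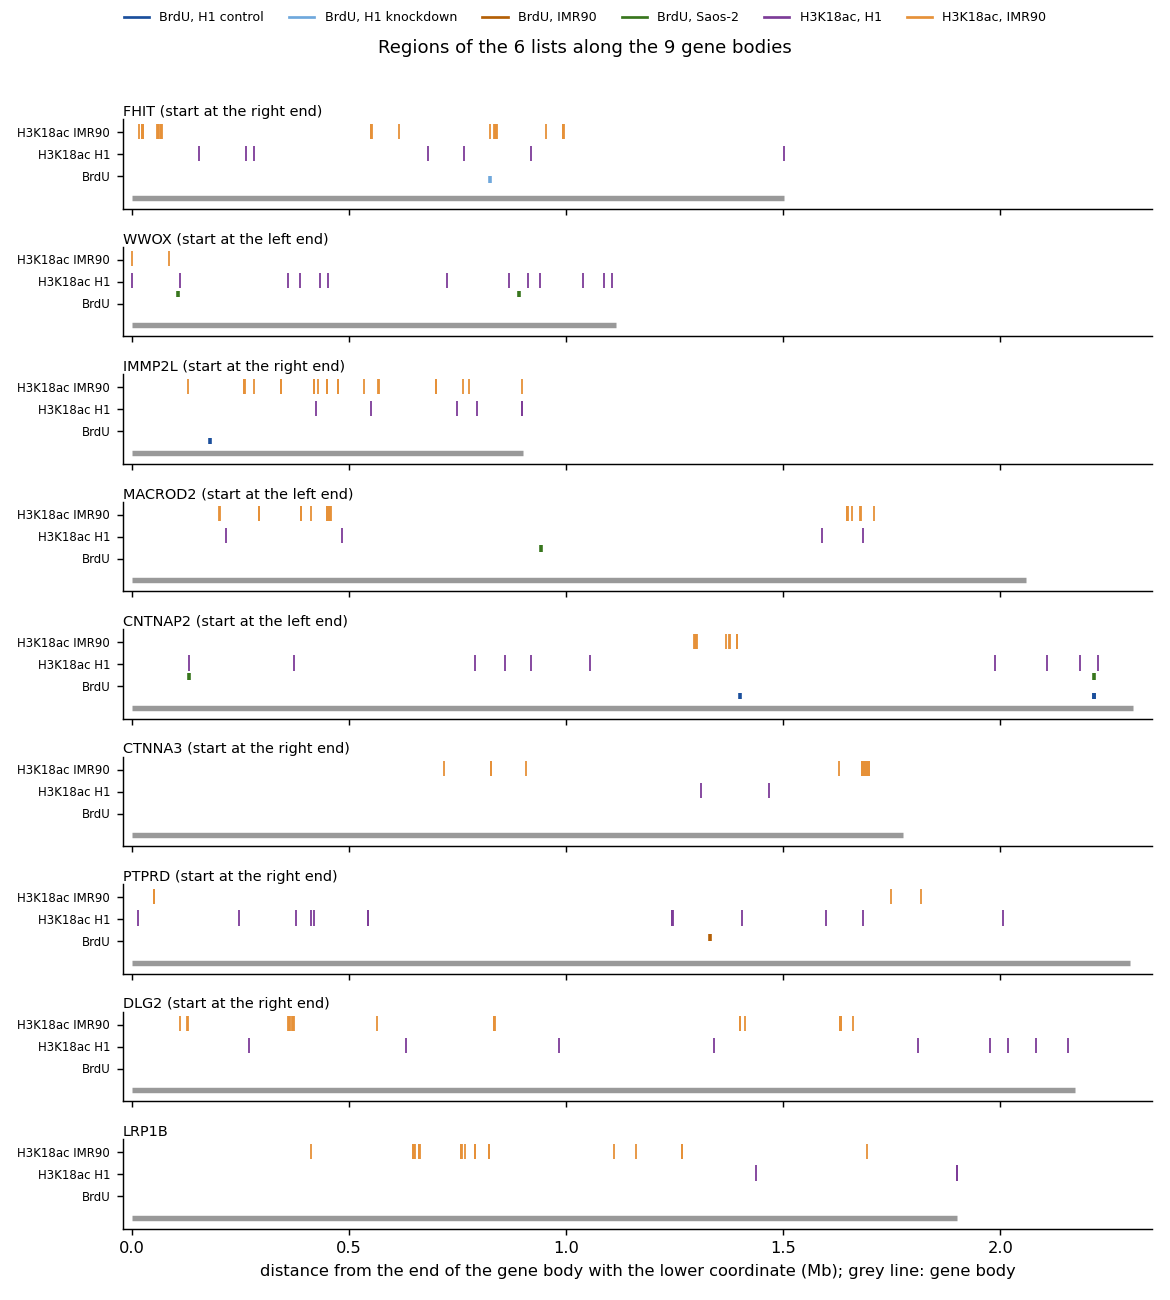
Position of every region of the 6 lists along the 9 gene bodies, as distance in Mb from the end with the lower coordinate, with the BrdU lists stacked in 4 colours (from the bottom H1 control, H1 knockdown, IMR90 and Saos-2) and H3K18ac of H1 and IMR90 in a row each. BrdU ticks are few and are absent from CTNNA3, DLG2 and LRP1B, IMR90 ticks stand in clusters, such as the 14 regions in CTNNA3, and H1 ticks are mostly single.

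In H1, density over the 9 genes together was higher in the outer 10 kb than in the interior. The outer 10 kb of the 9 bodies, both ends together, held 8 of the 70 H1 regions, or 44.4 per Mb (19.2 to 87.6), against 3.91 per Mb (3.00 to 5.02) in the interior, a ratio of 11.4 (4.70 to 23.8). Of these 8, 4 were at the starts of FHIT, WWOX and IMMP2L, 3 at the upper end of LRP1B, and 1 at the downstream end of WWOX (chr16:79239001-79239100). The other genes had none at their ends. The 3 at LRP1B lay within 1 kb and the 2 at IMMP2L within 0.6 kb. The 8 regions are therefore not independent and the intervals are too narrow, and the ratio was not computed with neighbouring regions merged. In IMR90 the ends held 2 of 150 regions, a ratio of 1.19 (0.143 to 4.37). No BrdU region of any list lay in the outer 10 kb, where a count of 0 allows up to 20.5 per Mb per list (exact Poisson upper bound). Across 5 equal segments of the 8 genes with a known start, counted from the start, the H1 regions numbered 17, 14, 10, 6 and 19 and the IMR90 regions 26, 27, 26, 15 and 32. By count the fourth segment was the lowest and the last the highest in both lists, though in H1 the last exceeded the first only by 19 against 17. No interval was computed for these counts, and clustered IMR90 regions are not independent.

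The sparseness did not stop at the gene ends. In the 500 kb on either side of the bodies, H3K18ac reached 0.442 (0.361 to 0.535) of the expected number in H1, with 105 regions, and 0.656 (0.565 to 0.757) in IMR90, with 185. Per Mb, the bodies had 0.374 (0.273 to 0.511) and 0.455 (0.365 to 0.568) times the density of these flanks, which over the 9 genes together was lower in the bodies. Single genes differed: the body was denser than its flanks for IMMP2L in H1 (6.67 per Mb against 3 regions in the 1 Mb of flanks), and in IMR90 for MACROD2 (10.7 against 3), LRP1B (12.6 against 6) and PTPRD (2.17 against 0). With flanks of 1 Mb on either side, the PTPRD body was the less dense (ratio 0.395, 0.108 to 1.23). The ratios of IMMP2L in H1 (1.21), MACROD2 (1.26) and LRP1B (1.15) stayed above 1, and all these intervals contain 1. DLG2 alone held 56 of the 185 IMR90 flank regions, and without it the ratio of body to flank in IMR90 was 0.573 (0.445 to 0.737). For BrdU the flanks held 6 regions in H1 control (ratio 0.323, 0.118 to 0.702), 0 in the knockdown (upper bound 0.661), 5 in Saos-2 (0.220, 0.0713 to 0.513) and 2 in IMR90 (0.0867, 0.0105 to 0.313). Body over flank was 0.374 (0.0777 to 1.58) in H1 control, 0.281 (0.00476 to 5.39) in IMR90 and 0.562 (0.129 to 2.44) in Saos-2, and all 3 intervals contain 1. A difference between body and flank was thus not detectable for BrdU at these counts.

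BrdU regions in these genes were too few to compare with H3K18ac. None of the 11 overlapped an H3K18ac region of either list (exact binomial upper bound 28.5%), and 11.3% of all regions of the 4 BrdU lists did, so no difference was detectable. Within 1 kb there were 2, and the share of all BrdU regions within 1 kb was not computed. A Saos-2 region in CNTNAP2 (chr7:145945001-145945200) lay 200 bp from the H1 H3K18ac region that ranks among the highest of these genes, and a knockdown region in FHIT (chr3:60560501-60560600) lay 700 bp from an IMR90 H3K18ac region at the edge of a cluster of 6. In neither case do the 2 neighbours come from the same cell line. H3K18ac in Saos-2 and in knockdown H1 cells was not analysed here.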

How the data were processed

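The series has 12 samples of 3 cell lines: 6 pull-down libraries, each with 1 list of regions, and 6 inputs, which were not analysed here. Alignment tool and build were Bowtie 0.12.7 and hg19, per the submitters' processing notes. How regions were called, with which threshold, treatment of duplicate reads and use of inputs, is not given in the sources used here. Regions lie on a grid of 100 bp. The score deposited by the authors is a whole number per region of unstated meaning and was ranked only within its own list.

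Gene bodies were the stated hg19 intervals, rounded to 1 kb. Regions wholly inside were counted, and the expected number was the density in the rest of the same chromosome, over 500 kb bins that hold a region of any list, times the gene length. Parts of MACROD2, CTNNA3 and PTPRD (500, 320 and 500 kb) lie in bins without any region, and their full length was used. Intervals are exact 95% (Poisson for pooled counts, Clopper-Pearson for shares and single genes) and cover counting error only. Overlap meant at least 1 bp. Python 3.11.15, numpy 2.4.6, pandas 2.3.3, scipy 1.17.1 and matplotlib 3.10.9 were used, and the counting code was tested on simulated data. All 9 genes are named, and 1 further gene of the set is not reported here. Single regions named are BrdU regions that overlap another list, the highest-scoring and longest regions and those within 10 kb of a start, and the others (the 2 near H3K18ac, the PTPRD region, the clusters, the upper and downstream ends) were chosen after their values were seen. Strands and promoters came from RefSeq tables of GRCh38.p14, which matched 8 of the 9 genes. A list of other large fragile-site genes was not run, since no hg19 annotation was used here. The genes, lists and comparisons were chosen with earlier results of these data known.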

Additional observations from a re-analysis of the deposited data

Results flagged for a closer look

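For FHIT the direction of the BrdU density relative to the rest of the chromosome was opposite between lists, and the difference was not tested. It stood at 1.07 in the H1 knockdown, from 1 region against 0.933 expected (exact 95% interval 0.0269 to 6.09), and FHIT held no region in the other 3 BrdU lists. The interval contains 1.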

How the results depend on the processing

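Of the values that answer a comparison, 140 alternatives were labelled alike. For ratios alike meant the same direction and side of the interval. For overlap shares it meant only a value within the main interval, which was wide for the BrdU lists. A further 6 lost an interval clear of 1 and 1 moved. For single genes 225 were alike, 35 lost such an interval, 1 gained one, 5 moved and 3 reversed. Many of the 225 had little room to differ. A gene without a region in a list kept a ratio of 0 under every setting, so its direction could not change. Counting regions with at least 1 bp inside changed no ratio. The ratio over the 9 genes stayed below 1 under all 17 alternatives in each list, at most 0.391 in H1 H3K18ac and 0.462 in IMR90 H3K18ac, with intervals below 1. Against 1 Mb on either side the BrdU intervals reached 1, with ratios of 0.408 in H1 control, 0.225 in the knockdown, 0.140 in IMR90 and 0.562 in Saos-2. The excess of IMR90 over H1 H3K18ac relative to the lists was within its interval of 1 in the upper 50% by score (1.44) and after merging within 10 kb (1.23). Knockdown over control relative to the lists moved from 0.725 to 2.90 without CNTNAP2. Against 1 Mb on either side IMMP2L in H1 (1.21), MACROD2 in IMR90 (1.26) and LRP1B in IMR90 (1.15) reversed for H3K18ac, with intervals that contain 1. Leaving genes out for the comparisons between lists and with the flanks, and the open bins of the bodies, were added after seeing the data. Beyond fewer regions or genes counted, the cause was not tested. No paired analysis was possible because each group had 1 library. Depth is unknown and limits what can be said of missing regions.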
